A study of Mus musculus with 2 samples.

Results

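The neuropeptide genes examined here are 10 genes that encode the precursors of secreted brain peptides: Npy, Sst, Cck, Tac1, Tac2, Penk, Pdyn, Vip, Crh and Adcyap1. They were taken by gene symbol from the authors' deposited table, and all 10 were found among its 24319 named genes. The study sequenced polyadenylated RNA from sorted dentate gyrus nuclei of mice aged 8 weeks, with 1 pooled library from Kmt2d +/mut mice and 1 from wild-type mice. The mutant mice kept 1 wild-type Kmt2d allele beside a mutant allele that the series writes as Bgeo, and KMT2D is a histone methyltransferase whose loss of function in people causes Kabuki syndrome type 1. All mice of both genotypes received EdU, a thymidine analogue taken up during DNA synthesis, at 150 mg/kg and were sampled 16 h later. Each library held 500 EdU-labelled nuclei pooled from 3 mice, so no value below has a replicate, no test between genotypes was possible here, and differences between animals cannot be seen.

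Neuropeptides are made as long precursors that enter the secretory pathway, are cut by proprotein convertases, trimmed and often amidated, and are stored in dense-core vesicles with the granin proteins. They are released on activity and act on G protein-coupled receptors of the same or neighbouring cells. In the adult dentate gyrus most of the 10 genes are known from GABAergic interneurons of the hilus and molecular layer, while Penk, Pdyn and Cck are also known from granule neurons and Tac2 from immature granule neurons. Cells leave the cycle before they become interneurons or granule neurons, and EdU marks cells that were copying their DNA.

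Kmt2d itself stood at 23.5 FPKM in the Kmt2d +/mut library and 34.7 in the wild-type library, and the authors did not test this gene. FPKM counts fragments relative to the length of the transcript and the size of the library. The libraries had 5443 and 5787 named genes above 0, in Kmt2d +/mut nuclei and wild-type nuclei in that order, and their FPKM summed to 390074 and 442190. A single fragment was worth an estimated 4.57 FPKM on 1 kb of shortened transcript in Kmt2d +/mut nuclei and 4.51 in wild-type nuclei, from the steps between low values. Depth was then nearly equal, provided that FPKM was computed on the fragments of that library alone, which is not stated. An exact 0 can be a failed estimate, and genes at 0 are therefore described as listed at 0.

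Of the 10 neuropeptide genes, 5 were read in at least 1 library, 2 of them in both and 3 in only 1. Being listed at 0 in 1 library was as common among all genes over 1 FPKM, at 59.7%. The Kmt2d +/mut nuclei had Cck, Sst and a lower level of Tac2. The wild-type nuclei had Npy, Tac2, Penk and a lower level of Cck. Sst was read only in Kmt2d +/mut nuclei, and Npy and Penk only in wild-type nuclei. The summed FPKM of the 10 genes was 841 in Kmt2d +/mut nuclei and 945 in wild-type nuclei. This ratio of 0.89 stood beside a ratio of 0.882 for the sum of all genes. The sums came largely from different genes, so their ratio describes no shared level. Cck made up 57.0% of the summed neuropeptide FPKM in Kmt2d +/mut nuclei and 5.89% in wild-type nuclei. Npy made up none of it in Kmt2d +/mut nuclei and 43.6% in wild-type nuclei. These are shares of FPKM and not of fragments, and a fragment on a short transcript counts for more FPKM. Penk made up 13.4% in wild-type nuclei, although its estimated 34.0 fragments there were close to the 31.0 of Npy.

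**Figure D1:**
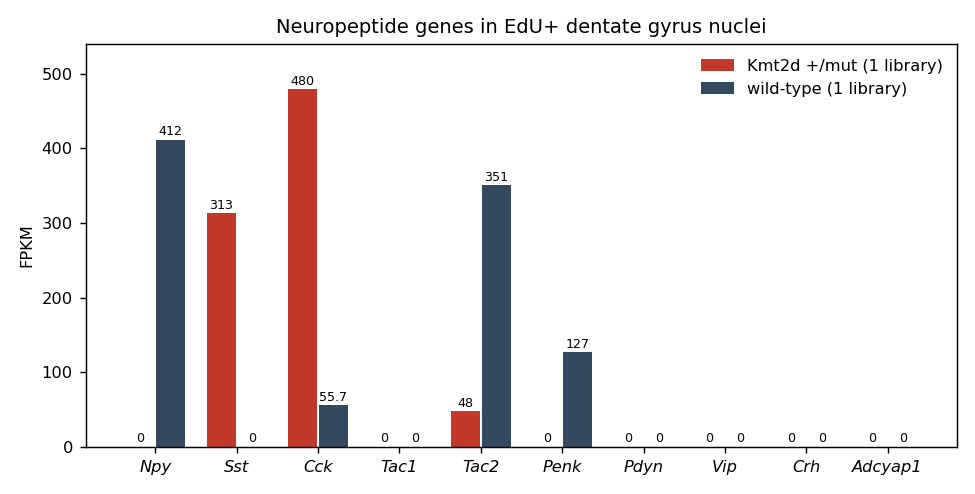
FPKM of each of the 10 neuropeptide genes in the Kmt2d +/mut library (red, left bar) and the wild-type library (dark, right bar), with the value printed above each bar and no error bars because each genotype has 1 library. Cck and Sst are the tall red bars at 480 and 313 FPKM, Npy, Tac2 and Penk the tall dark bars at 412, 351 and 127, and 5 genes are listed at 0 in both.

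Npy encodes neuropeptide Y, a peptide that dampens excitability in the hippocampus. It was listed at 0 in Kmt2d +/mut nuclei and stood at 412 FPKM in wild-type nuclei, above 97.3% of the genes read in that library. The wild-type value corresponds to an estimated 31.0 fragments. Npy (mm10, chromosome 6, 49822729 to 49829505, plus strand, protein-coding) is called lower in Kmt2d +/mut nuclei by the authors' deposited table, with a p-value of 0.008 and a q-value of 0.0418.

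Penk encodes proenkephalin, the precursor of the enkephalin opioid peptides. It was listed at 0 in Kmt2d +/mut nuclei and stood at 127 FPKM in wild-type nuclei, an estimated 34.0 fragments. Its wild-type FPKM lay above that of 84.4% of the genes read there. Penk (chromosome 4, 4133536 to 4138445, minus strand) is also called lower by the authors' deposited table, with a p-value of 0.00255 and a q-value of 0.029.

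Sst encodes somatostatin, an inhibitory peptide that marks a large class of hilar interneurons. It stood at 313 FPKM in Kmt2d +/mut nuclei, an estimated 27.0 fragments, and was listed at 0 in wild-type nuclei. Sst (chromosome 16, 23889581 to 23890844, minus strand) was above 96.9% of the genes read in Kmt2d +/mut nuclei. The authors' deposited table does not call it, with a p-value of 0.0365 and a q-value of 0.175. Sst and Npy were each listed at 0 in the library where the other was read. Being listed at 0 in 1 library held for 59.7% of all genes over 1 FPKM. These peptides are known to occur together in many hilar interneurons, and their presence in the same cells was not tested.

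Cck and Tac2 were the only neuropeptide genes read in both libraries, and they differed in opposite directions. Cck, the precursor of cholecystokinin, stood at 480 FPKM in Kmt2d +/mut nuclei and 55.7 in wild-type nuclei, and was 8.61 times as high in Kmt2d +/mut nuclei. These values correspond to an estimated 62.4 and 7.34 fragments, in Kmt2d +/mut nuclei and wild-type in that order, and the exact binomial 95% interval of the ratio ran from 4.11 to 23.2. Cck (chromosome 9, 121489824 to 121495694, minus strand) lay above 98.4% of read genes in Kmt2d +/mut nuclei and 67.6% in wild-type nuclei. The authors' deposited table gives it a p-value of 0.324 and a q-value of 0.609, and no call.

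Tac2 encodes the precursor of neurokinin B, a tachykinin. It stood at 48.0 FPKM in Kmt2d +/mut nuclei and 351 in wild-type nuclei, so that the Kmt2d +/mut value was 0.137 of the wild-type value. The estimated fragments were 6.80 in Kmt2d +/mut nuclei and 50.3 in wild-type nuclei, and the 95% interval of the ratio ran from 0.0543 to 0.314. Tac2 (chromosome 10, 127724478 to 127731768, plus strand) has a p-value of 0.333 and a q-value of 0.611 in the authors' deposited table, with no call. Both intervals cover counting error only, and after PCR without molecular identifiers fragments are not separate molecules, so the intervals are too narrow for a difference between genotypes. Of 3182 genes above 0 in both libraries and at 1 FPKM or more in at least 1, 21.9% had a larger fold than Cck, in either direction, and 25.2% had a larger fold than Tac2.

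The other 5 genes were listed at 0 in both libraries. They are Tac1, the precursor of substance P, the opioid precursor gene Pdyn, Vip, which encodes vasoactive intestinal peptide, the corticotropin-releasing hormone gene Crh, and Adcyap1, which encodes the peptide PACAP. With their transcript lengths 1 fragment would have been worth between 2.09 FPKM (Pdyn) and 5.51 FPKM (Tac1) in Kmt2d +/mut nuclei, and between 2.07 and 5.44 in wild-type nuclei. Being listed at 0 was common in these libraries, at 66.9% of all named genes, and 5 of 10 is no larger a share.

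Counts of the neuropeptide genes are set beside the same share of all genes, and with 5 genes read no more is drawn from them. Of the 5 genes at 1 FPKM or more in at least 1 library, 3 were lower by 2-fold or more in Kmt2d +/mut nuclei on the log2(FPKM + 1) scale, against 44.3% of the 7903 genes over this minimum. The remaining 2 were higher by 2-fold or more, against 40.5%. Of the 5 genes, 3 were listed at 0 in 1 library, against 59.7% of all. The authors tested all 5, and their deposited table calls 2 lower and 0 higher, against 14.3% and 12.8% of the 3249 genes tested. The authors' deposited table calls 61.7% of the 1423 tested genes listed at 0 in 1 library, and 0% of the 1826 above 0 in both, where the smallest q-value is 0.178. Npy and Penk are 2 of the 3 neuropeptide genes listed at 0 in 1 library, and Cck and Tac2 belong to the group without calls. The median log2 ratio of the 5 genes was -2.84, which is the value of Tac2, against -0.23 for all genes over the minimum. The 5 values spread from Npy to Sst on both sides of 0, so the median stands for no common direction. In bulk nuclei, fewer cells of a type and less RNA per cell cannot be told apart.

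**Figure D2:**
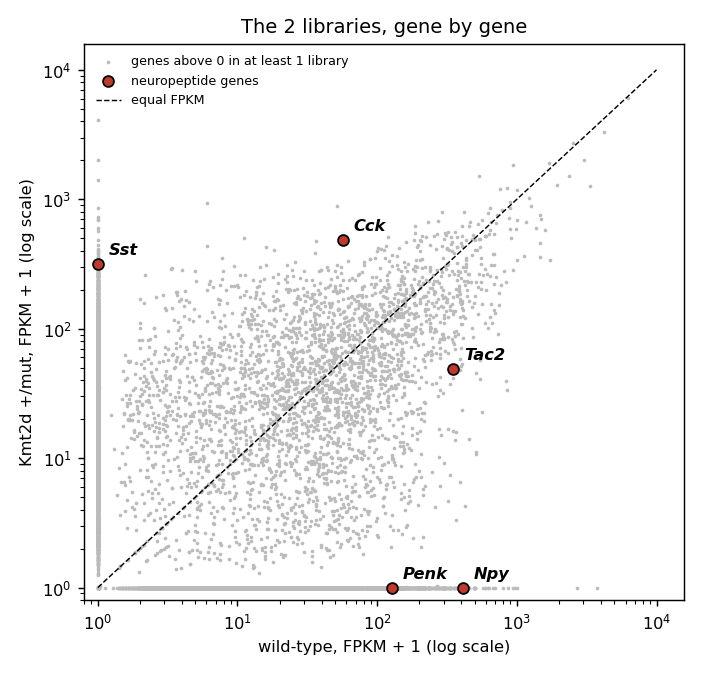
Each point is 1 gene read in at least 1 library, with FPKM + 1 in wild-type nuclei on the x axis and in Kmt2d +/mut nuclei on the y axis, both on log scales. The red points are the 5 neuropeptide genes read: Sst lies on the left edge (listed at 0 in wild-type nuclei), Npy and Penk lie on the lower edge (listed at 0 in Kmt2d +/mut nuclei), and Cck and Tac2 lie within the cloud on opposite sides of the dashed line of equal FPKM.

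Promoter sequence is shown for 4 of the 5 read genes because 1 element, the cyclic AMP response element (CRE, TGACGTCA) to which the factor CREB binds, is the feature for which neuropeptide promoters are best known, the somatostatin promoter above all. RefSeq windows (GRCm38.p6) from 250 bases before to 50 after the start were matched for 8 of the 10 genes, in 10 windows, with none for Penk and Crh. The full CRE was found on Sst alone among them, from base -48 to -41, against 1.79% of 32851 RefSeq promoter windows. The core motif TGACG, searched on both strands and contained in the full element, was found at Sst, Cck, Tac1, Vip and Adcyap1, against 20.8% of windows. The TATA box TATAAA, also on both strands, was found at Vip and Adcyap1, against 13.6% of windows. The 100 bases before the start follow 5′ to 3′ on the strand of the gene, with the CRE or its core motif in capitals. They lie at chr16:23890845-23890944 (Sst, minus strand), chr6:49822610-49822709 (Npy, plus strand), chr9:121495695-121495794 (Cck, minus strand) and chr10:127724378-127724477 (Tac2, plus strand).
Sst: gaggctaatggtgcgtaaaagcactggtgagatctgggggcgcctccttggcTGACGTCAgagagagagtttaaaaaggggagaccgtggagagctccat
Npy: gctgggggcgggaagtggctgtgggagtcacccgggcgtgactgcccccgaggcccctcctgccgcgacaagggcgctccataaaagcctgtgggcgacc
Cck: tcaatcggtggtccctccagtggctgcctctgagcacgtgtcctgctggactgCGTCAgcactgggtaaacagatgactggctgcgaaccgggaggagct
Tac2: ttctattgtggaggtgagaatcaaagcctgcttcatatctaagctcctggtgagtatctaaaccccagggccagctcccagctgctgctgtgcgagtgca
In these 100 bases Sst had the full element and Cck a core motif from base -47 to -43, while the stretches of Npy and Tac2 did not hold these letters. No promoter activity was measured, and a match in a window is a description and not a bound site.

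Of 24 genes of receptors and binding proteins of these peptides, 19 were listed at 0 in both libraries, against 66.9% of all named genes, and 5 were read. Adcyap1r1, the receptor of PACAP and the most abundant of them, stood at 21.5 FPKM in Kmt2d +/mut nuclei and 122 in wild-type nuclei, an estimated 27.7 and 159 fragments in that order. Its ratio of 0.176 had a 95% counting interval from 0.115 to 0.268, while 30.3% of the genes above 0 in both libraries had a larger fold. Vipr2, a receptor of VIP and PACAP, was listed at 0 in Kmt2d +/mut nuclei and stood at 35.4 FPKM in wild-type nuclei. The somatostatin receptor genes split, with Sstr1 at 15.0 FPKM in Kmt2d +/mut nuclei and listed at 0 in wild-type nuclei, and Sstr2 listed at 0 in Kmt2d +/mut nuclei and at 10.2 FPKM in wild-type nuclei. Cckbr, the brain receptor of cholecystokinin, completes the 5 and was picked after its values were seen. It was listed at 0 in Kmt2d +/mut nuclei and at 3.81 FPKM in wild-type nuclei, an estimated 2 fragments. The 24 genes summed to 36.4 FPKM in Kmt2d +/mut nuclei and 171 in wild-type nuclei, and 4 of the 5 read were lower by 2-fold or more in Kmt2d +/mut nuclei, against 44.3% of all genes over the minimum. With 5 genes read, nothing more is drawn from that count. The authors tested 1 of them, Adcyap1r1, and their deposited table does not call it, with a q-value of 0.45. Adcyap1, the gene of its ligand, was listed at 0 in both libraries.

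Genes that process peptide precursors were among the most abundant of these lists in both libraries. Cpe, the carboxypeptidase that trims cut peptides, differed little, at 651 FPKM in Kmt2d +/mut nuclei and 709 in wild-type nuclei, above 99.2% and 99.1% of read genes. Its ratio of 0.918 had a 95% counting interval from 0.775 to 1.09. Qpct, which forms the pyroglutamate end of some peptides, stood at 401 and 328 FPKM in Kmt2d +/mut nuclei and wild-type. Pcsk1n, which encodes an inhibitor of a proprotein convertase, stood at 91.9 FPKM in Kmt2d +/mut nuclei and 61.2 in wild-type nuclei. The intervals of the ratios of Cpe, Qpct and Pcsk1n each contained 1.

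Scg5, a granin-like chaperone of the convertase PC2, stood at 438 FPKM in Kmt2d +/mut nuclei and 115 in wild-type nuclei, a ratio of 3.82 with an interval from 2.40 to 6.12. A larger fold was found for 40.9% of the genes above 0 in both libraries. Pcsk2, which encodes PC2 itself and was picked after its values were seen, stood at 126 FPKM in Kmt2d +/mut nuclei and 6.95 in wild-type nuclei, a ratio of 18.1 that 10.9% of genes above 0 in both exceeded. Pcsk1, which encodes the other main convertase of neuropeptides, was listed at 0 in both libraries. Of the 12 of 18 processing genes over the minimum, 5 were higher by 2-fold or more in Kmt2d +/mut nuclei (40.5% of all genes), 3 lower by 2-fold or more (44.3% of all genes) and 4 within 2-fold. The authors' deposited table calls 0 of the 6 that the authors tested.

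**Figure D3:**
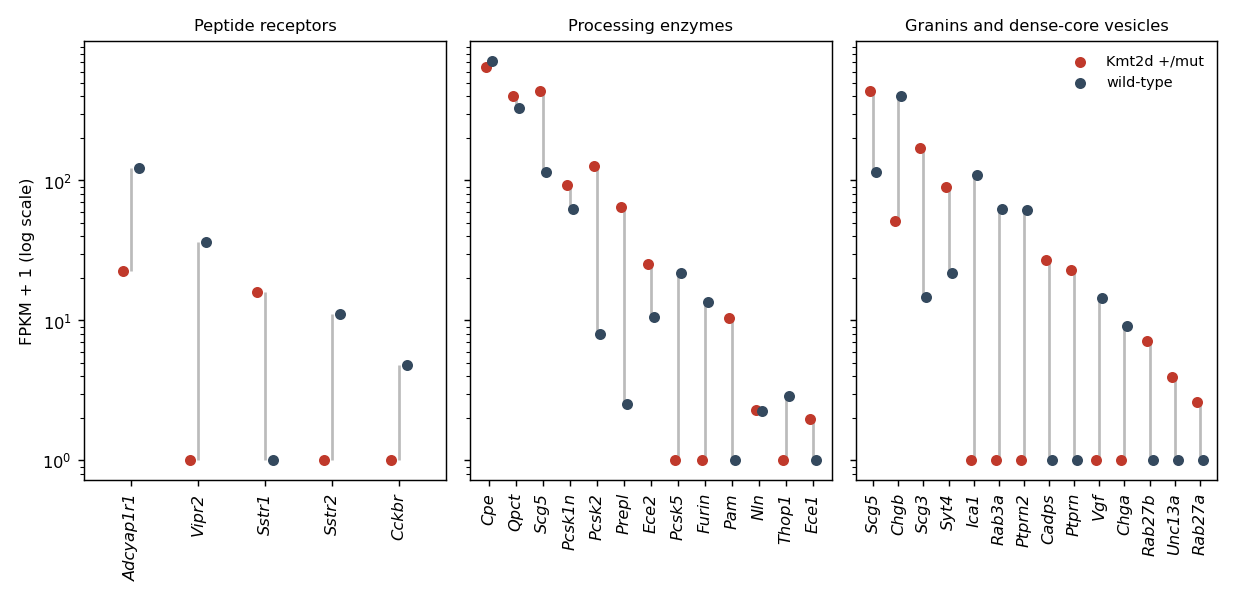
FPKM + 1 on a log scale for the genes read in at least 1 library, among peptide receptors (left panel), processing enzymes (middle) and granins and dense-core vesicle genes (right), each ordered by mean FPKM, with Kmt2d +/mut in red and wild-type in dark. Cpe stands at 651 and 709 FPKM while Chgb and Scg3 are far apart in opposite directions, and points at the bottom are listed at 0.

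Granins and other dense-core vesicle genes included both higher and lower ones. Chgb, which encodes the granin chromogranin B, stood at 50.6 FPKM in Kmt2d +/mut nuclei and 399 in wild-type nuclei, with a ratio of 0.127 and a counting interval from 0.0823 to 0.188. Scg3, which encodes the granin secretogranin III, stood at 169 FPKM in Kmt2d +/mut nuclei and 13.6 in wild-type nuclei, with a ratio of 12.4 and an interval from 5.48 to 35.1. A larger fold than that of Chgb was found for 23.6% of the genes above 0 in both libraries, and a larger one than that of Scg3 for 15.7%. Syt4, a synaptotagmin found on dense-core vesicles, stood at 89.0 and 20.7 FPKM in Kmt2d +/mut nuclei and wild-type. Ica1 and Ptprn2, a gene of a BAR-domain protein and a gene of a dense-core vesicle membrane protein, were listed at 0 in Kmt2d +/mut nuclei and stood at 108 and 60.3 FPKM in wild-type nuclei, with lower calls in the authors' deposited table and q-values of 0.0293 and 0.0294. Of 14 genes over the minimum, 8 were higher by 2-fold or more in Kmt2d +/mut nuclei, against 40.5% of all genes, and 6 lower by 2-fold or more, against 44.3%. The 2 lower calls are among 7 genes that the authors tested, against 14.3% of all tested genes. Both called genes were listed at 0 in 1 library, and 61.7% of all tested genes of that kind are called in either direction. The list summed to 805 FPKM in Kmt2d +/mut nuclei and 800 in wild-type nuclei. The largest part was Scg5 in Kmt2d +/mut nuclei, at 438 FPKM, and Chgb in wild-type nuclei, at 399. Scg5 is counted in this list and among the processing genes.

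Of 39 other neuropeptide precursor genes, 37 were listed at 0 in both libraries, against 66.9% of all named genes, among them Pomc, Gal, Cartpt and Pnoc. The exceptions were Nmb, the neuromedin B precursor, at 65.7 FPKM in Kmt2d +/mut nuclei, and Grp, the gastrin-releasing peptide precursor, at 19.9 FPKM there, both listed at 0 in wild-type nuclei. Grp rests on an estimated 3.00 fragments and Nmb on 6.99. Neither is called in the authors' deposited table.

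Markers of cells known to make these peptides were read in part. Of 28 interneuron markers, 17 were listed at 0 in both libraries, against 66.9% of all named genes, including the defining genes of GABA synthesis and packaging Gad1, Gad2 and Slc32a1, and Pvalb and Lhx6. The list summed to 485 FPKM in Kmt2d +/mut nuclei and 636 in wild-type nuclei. Htr3a, a serotonin receptor subunit of interneurons, stood at 253 FPKM in Kmt2d +/mut nuclei and was listed at 0 in wild-type nuclei. It has a higher call in the authors' deposited table, with a q-value of 0.0293. Nxph1 was listed at 0 in Kmt2d +/mut nuclei and stood at 68.6 FPKM in wild-type nuclei, and the authors' deposited table does not call it. Of 10 interneuron markers over the minimum, 4 were higher by 2-fold or more and 6 lower by 2-fold or more in Kmt2d +/mut nuclei, against the same 40.5% and 44.3% of all genes. Of 6 hilar mossy cell markers 3 were read, Calcrl at 39.3 FPKM in Kmt2d +/mut nuclei and 37.8 in wild-type nuclei, Calb2 only in wild-type nuclei and Nmb only in Kmt2d +/mut nuclei. Of 6 Cajal-Retzius markers only Calb2 was read, at 66.2 FPKM in wild-type nuclei.

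Of 16 granule neuron markers, 13 were over the minimum. Of these, 4 were higher by 2-fold or more in Kmt2d +/mut nuclei, against 40.5% of all genes, and 5 lower by 2-fold or more, against 44.3%. The list summed to 1854 FPKM in Kmt2d +/mut nuclei and 2407 in wild-type nuclei. Stmn2, a microtubule regulator of growing neurites, stood at 45.7 FPKM in Kmt2d +/mut nuclei and 157 in wild-type nuclei, a ratio of 0.292 with a 95% counting interval from 0.16 to 0.508, and 44.8% of the genes above 0 in both libraries had a larger fold. Nnat stood at 858 and 886 FPKM, C1ql2 at 193 and 161, and Snap25 at 539 and 685, each in Kmt2d +/mut nuclei and wild-type. Dcx, another gene of immature neurons, was read at 51.1 FPKM in Kmt2d +/mut nuclei against a listed 0 in wild-type nuclei. Calb1, a calcium buffer of mature granule neurons, was listed at 0 in Kmt2d +/mut nuclei and stood at 178 FPKM in wild-type nuclei. The authors' deposited table calls Dcx higher, with a q-value of 0.0263, and Calb1 lower, with a q-value of 0.029. These are the calls among 8 granule neuron markers tested, against 12.8% higher and 14.3% lower of all tested genes. Dcx and Calb1 were each listed at 0 in 1 library, as were all genes called, and 61.7% of tested genes of that kind are called in either direction. The median log2 ratio over the minimum was -2.45 for the receptors, 0.43 for the processing genes, 1.65 for the granins and vesicle genes, -2.12 for the interneuron markers and -0.05 for the granule neuron markers, beside -0.23 for all genes. Prox1, the defining transcription factor of granule neurons, was listed at 0 in both. The part of these cell types in the neuropeptide values was not tested.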

How the data were processed

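RNA was read in 2 libraries by a modified Smart-seq2 protocol, per the labels' protocols. HISAT2, Cuffnorm, Cuffdiff and mm10 are named in the submitters' processing notes, and versions, annotation and settings are not stated there. The authors deposited FPKM per gene, with the p-value and q-value of their own test for each pair of libraries, which are copied as the authors' values. The table holds 6 libraries, of which 4 were not used. Of 24346 entries in the pair, 27 had a date for a name and were left out.

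Ratios are Kmt2d +/mut over wild-type, with a pseudocount of 1 where a log2 value is given, which understates the differences of low genes, and a minimum of 1 FPKM in at least 1 library for counts. Fragment numbers came from the spacing of low FPKM values over genes that have a single transcript in GENCODE M21 (same build), of more than 800 bp, with 205 bp taken off the length. Of such values under 4.5 fragments, 74.0% in Kmt2d +/mut nuclei and 78.3% in wild-type nuclei lay within 0.1 of a whole number. Each gene's length was that of its longest protein-coding transcript within the deposited locus. Npy, Sst and Cck, at 545, 599 and 799 bp, are shorter than the genes used for the spacing, so their fragment numbers are extrapolated. Intervals are exact binomial (Clopper-Pearson). No strand marking is described, so overlapping genes can share fragments. Python 3.11.15 with scipy 1.17.1 and numpy 2.4.6 was used.

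The members and gene lists were chosen with earlier results of these data known. The rule named all 10 members, and from each other list the 4 genes of highest mean FPKM and any gene called in the authors' deposited table. Some interneuron markers that meet this rule are not reported here. For glial, microglial, vascular and cycling markers only counts and sums are given. Alternatives were the pseudocount, the minimum and 2 rescalings.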

Additional observations from a re-analysis of the deposited data

How the results depend on the processing

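With 1 library per genotype no replicate could be left out. No paired analysis was possible because each genotype has 1 library. The median log2 ratio of the neuropeptide genes, -2.84 as reported, was -2.64 with a pseudocount of 10 FPKM, -2.67 with FPKM rescaled to the same sum, 0.00 with no minimum (where the 5 genes listed at 0 in both enter), and 0.12, in the opposite direction, over the 2 genes above 0 in both libraries. The median of all genes was -0.23, and -0.04 with the same sum. Over genes above 0 in both, 1 neuropeptide gene was 2-fold or more above and 1 was 2-fold or more below wild-type, as fewer genes enter. Under the other settings tried, those counts stayed at 2 and 3. Cck ranged from 2.90 to 3.26 on the log2 scale and Tac2 from -2.92 to -2.64. Genes listed at 0 stay at 0 under every rescaling. Depth limits low genes: the lower values of Cck and Tac2 rest on about 7 fragments each.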

Other observations

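Of 22 genes in a list of activity-regulated genes and CREB-related factors, 15 were listed at 0 in both libraries. This share is close to the 66.9% of all named genes. Among the 15 were Fos, Arc, Npas4 and Bdnf, and Creb1, which encodes CREB itself. Crtc1, a coactivator of CREB, was listed at 0 in Kmt2d +/mut nuclei and stood at 58.5 FPKM in wild-type nuclei, and Homer1 and Nr4a2 were listed at 0 in Kmt2d +/mut nuclei and stood at 66.2 and 65.5 FPKM in wild-type nuclei. All 3 have a lower call in the authors' deposited table, each with a q-value of 0.029. They are the only 3 of the 22 genes that the authors tested, and lower calls cover 14.3% of all tested genes. Of tested genes listed at 0 in 1 library, as these 3 were, 61.7% are called in either direction. Fosb was read at 26.9 FPKM in Kmt2d +/mut nuclei and listed at 0 in wild-type nuclei.

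Markers of other cells were read in part. Oligodendrocyte lineage markers summed to 1709 FPKM in Kmt2d +/mut nuclei and 1115 in wild-type nuclei, with 9 of 10 genes read in at least 1 library. Astrocyte markers summed to 682 and 519 FPKM (6 of 8 read) and microglial markers to 281 and 62.5 FPKM (4 of 8 read), each in Kmt2d +/mut nuclei and wild-type. All 7 vascular markers were listed at 0 in both libraries, and 11 cycling markers summed to 62.4 FPKM in Kmt2d +/mut nuclei and 66.5 in wild-type nuclei.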
